A study of Mus musculus with 2 samples.

Results

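Vertebrate genomes carry microRNA genes in sets of 3 in which a mir-99 or mir-100 gene, a let-7 gene and a mir-125 gene follow each other on the same strand. The mouse has 3 such loci. They are called here by their first gene: the Mir99a locus (Mir99a, Mirlet7c-1, Mir125b-2), the Mir99b locus (Mir99b, Mirlet7e, Mir125a) and the Mir100 locus (Mir100, Mirlet7a-2, Mir125b-1). The 9 genes were taken by their GENCODE M21 names out of 2202 microRNA genes measured. No rule on their levels was used, but earlier results of these data were known. They were measured by microRNA-seq in the gastrocnemius, the large calf muscle, of male adult B6CASTF1/J mice aged 18 to 20 months. B6CASTF1/J is the first-generation cross of C57BL/6J and CAST/EiJ, and the animals came from The Jackson Laboratory. Both libraries, biological replicates 2 and 1, belong to this 1 group, and they were made from different biosamples under the same donor entry. No treatment, genotype contrast or second tissue was named. Separate animals were not stated, so the spread between the libraries may be technical.

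A microRNA is cut from a hairpin precursor as a short duplex, of which usually 1 arm is loaded into Argonaute and guides it to target RNAs. Pairing depends most on the seed, bases 2 to 8 of the loaded arm, and genes with the same seed are grouped as a family. The let-7 microRNAs are known from C. elegans as timers of late larval development, and in mammals they are abundant in differentiated tissues and repress Lin28 and Hmga2. The mir-125 genes are the vertebrate counterparts of C. elegans lin-4. The mir-99/100 genes belong to the wider mir-10 family, and the kinase Mtor is a known target in mammalian cells. In Drosophila the counterparts of all 3 families lie in a single locus, the let-7 complex.

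The mature sequences of the arms at the 5′ side of the hairpins, the arms named after each family, show what the 3 loci share. They are given 5′ to 3′ from RefSeq on GRCm38.p6, with bases 2 to 8 in capitals. Of the 9 genes, 8 have a 5′ arm in that table, with 7 distinct sequences, and for Mirlet7a-2 the table lists its 3′ arm.
miR-99a-5p: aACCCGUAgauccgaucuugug
miR-100-5p: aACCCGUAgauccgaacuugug
miR-99b-5p: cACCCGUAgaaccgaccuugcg
let-7c-5p: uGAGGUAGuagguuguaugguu
let-7e-5p: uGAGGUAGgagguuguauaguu
miR-125b-5p: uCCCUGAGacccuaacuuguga
miR-125a-5p: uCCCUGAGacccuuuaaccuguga

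Each family kept its seed in all of its listed 5′ arms: ACCCGUA in mir-99/100, GAGGUAG in let-7 and CCCUGAG in mir-125. Counting positions from 1 at the 5′ end, miR-100-5p differed from miR-99a-5p by U16A alone. miR-99b-5p differed from miR-99a-5p by A1C, U11A, U16C and U21C, all outside the seed. let-7e-5p differed from let-7c-5p by U9G and G19A. miR-125a-5p has 24 bases and miR-125b-5p has 22, an edit distance of 3.

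The 5′ arm of Mir125b-1 is identical to that of Mir125b-2, and the 5′ arm of Mirlet7c-1 is identical to that of Mirlet7c-2 on chromosome 15, outside the 3 loci. The arms on the 3′ side set these genes apart, since all 9 genes have a distinct 3′ arm in the table. Those of the 4 genes whose precursor shares 20 bases with another microRNA gene were as follows.
let-7c-1-3p: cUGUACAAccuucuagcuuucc
let-7a-2-3p: cUGUACAGccuccuagcuuuc
miR-125b-1-3p: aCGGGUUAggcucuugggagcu
miR-125b-2-3p: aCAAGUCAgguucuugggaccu

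miR-125b-2-3p differed from miR-125b-1-3p by G3A, G4A, U7C, C11U and G20C, so these arms differ in their bases 2 to 8. The deposited counts are per gene and do not separate the arms. The 3′ arms of Mir99a and Mir99b have the same bases 2 to 8, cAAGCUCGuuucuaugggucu and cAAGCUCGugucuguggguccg.

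Some precursors share stretches of 20 bases or more, and the place of these stretches relative to the arms was not looked up. Mir125b-1 and Mir125b-2 share 24 bases in a row, Mirlet7c-1 shares 23 with Mirlet7c-2, Mirlet7a-2 shares 23 with Mirlet7a-1, and Mirlet7c-1 and Mirlet7a-2 share 21 with each other. Mir99a, Mir99b, Mirlet7e, Mir125a and Mir100 share no 20 bases with a microRNA precursor elsewhere. Within the mir-99/100 family the nearest pair, Mir99a and Mir100, has 16 bases in a row in common. Pairs between families were searched for 20 shared bases only.

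All 9 genes lie on the plus strand of mm10, in the order mir-99/100, let-7, mir-125. The Mir99a locus lies on chromosome 16, within Mir99ahg, a long noncoding host gene. Mir99a (ENSMUSG00000065530.1, 77598936 to 77599000), Mirlet7c-1 (ENSMUSG00000065557.3, 77599657 to 77599750) and Mir125b-2 (ENSMUSG00000065472.1, 77646273 to 77646343) are intronic to it, and Mir125b-2 also overlaps an exon of C130023A14Rik. The Mir99b locus lies on chromosome 17 within Spaca6, a protein-coding gene known for a role in sperm-egg fusion. Mir99b (ENSMUSG00000065396.1, 17830188 to 17830257) and Mirlet7e (ENSMUSG00000105758.1, 17830352 to 17830444) are intronic, and Mir125a (ENSMUSG00000065479.2, 17830812 to 17830879) overlaps an exon of Spaca6. The Mir100 locus lies on chromosome 9 within the noncoding genes 3110039I08Rik and Gm49317. Mir100 (ENSMUSG00000093011.1, 41531425 to 41531504) and Mirlet7a-2 (ENSMUSG00000092770.1, 41536716 to 41536811) are intronic to both, as is Mir125b-1 (ENSMUSG00000093354.1, 41581926 to 41582002), which also overlaps an exon of Gm28119.

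The loci differed in how far apart their genes are. The Mir99b locus spans 692 nt, with gaps of 94 and 367 nt. The Mir99a locus spans 47.4 kb, with a gap of 656 nt before Mirlet7c-1 and of 46.5 kb before Mir125b-2. The Mir100 locus spans 50.6 kb, with gaps of 5.21 and 45.1 kb. The wide loci thus have their mir-125 gene far from the other pair.

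**Figure D1:**
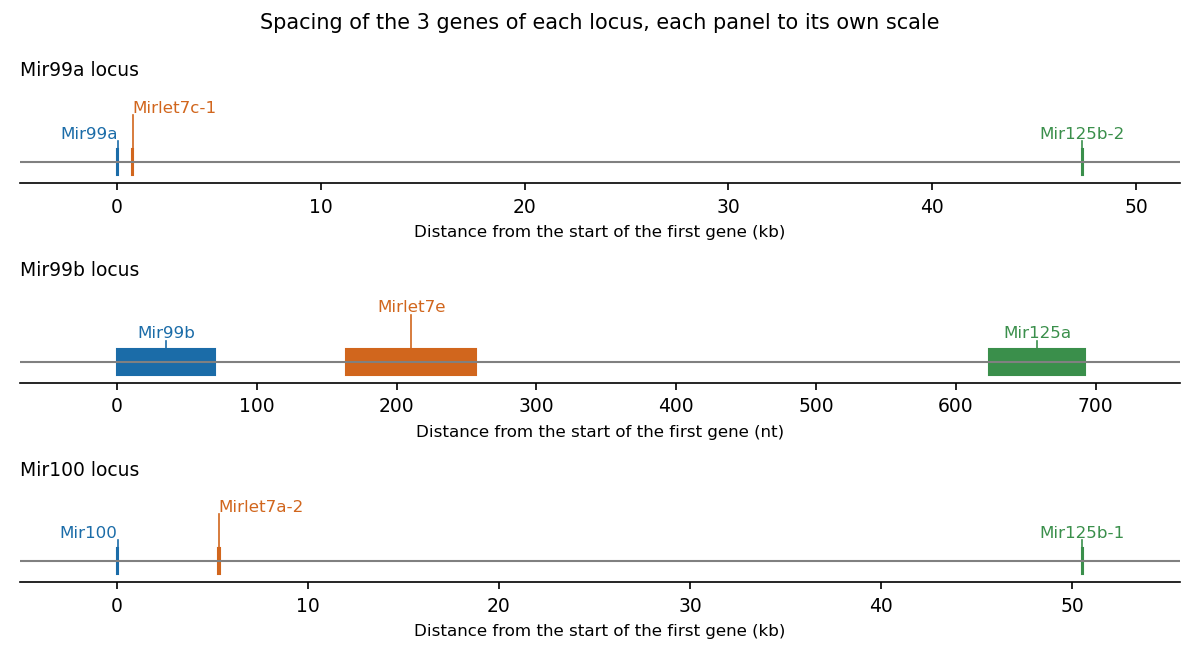
Position of each gene as the distance from the start of the first gene of its locus (x axis, in kb for the Mir99a and Mir100 loci and in nt for the Mir99b locus), with boxes drawn to scale and coloured by family. The genes of the Mir99b locus lie within 692 nt, while Mir125b-2 and Mir125b-1 lie 46.5 and 45.1 kb beyond the let-7 genes of their loci.

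The reads assigned to microRNA genes numbered 2156222 in replicate 2 and 4442692 in replicate 1, or 19.8% and 15.7% of the reads in their tables. Multimapping reads, 70.2% in replicate 2 and 73.8% in replicate 1, are not in the gene counts. Levels are given in CPM, counts per 1000000 assigned counts, and a count of 0 allowed up to 1.39 CPM in replicate 2 and 0.675 CPM in replicate 1. Counts came from PCR-amplified reads, so intervals cover counting error only. All 9 skeletal muscle marker genes were at 2 CPM or more in both libraries. Their summed share of counts was 6.57% in replicate 2 and 1.64% in replicate 1. Reads that match more than 1 locus are not in this sum, and their part was not tested. Most of that sum was Mir206, at 61540 CPM in replicate 2 and 11810 CPM in replicate 1, and Mir499 and Mir208b were also higher in replicate 2. The other 6 muscle genes had log2 ratios below 0, from −1.25 for Mir1a-1 to −0.22 for Mir486. The share of the endothelial gene Mir126a was 5.54% in replicate 2 and 10.4% in replicate 1, and that of the smooth muscle genes Mir143 and Mir145a 5.68% and 4.88%. The leukocyte list took 0.363% and 0.229%, the 2 erythroid genes 0.0109% and 0.0777%, the fibroblast list 0.0416% and 0.165%, the liver gene 0.0396% and 0.00133% and the epithelial list 0.0225% and 0.0205%. Of the leukocyte list 4 of 5 genes were found by name, and they went in both directions. Mir150 and Mir155 had log2 ratios of 0.80 and 1.02, and Mir223 and Mir142 of −0.23 and −0.69. The 3 epithelial genes at 2 CPM or more in both libraries did so too. Mir203 was at 0.66, and Mir200c and Mir205 were at −0.41 and −2.85. Of the 6 neural genes 5 were at 0 in both libraries, among them all 3 Mir124a loci. The part of these shifts in the ratios below was not tested. Since the tissue was measured in bulk, fewer cells of a type and less RNA per cell cannot be told apart.

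All 9 genes were detected at 2 CPM or more in both libraries, as were 324 of the 2202. Together they held 6.57% of assigned counts in replicate 2 (Wilson 95% interval 6.54 to 6.60) and 6.19% in replicate 1 (6.17 to 6.22). The levels covered more than 2 orders of magnitude. Those of 5 genes were high: Mir99a, Mir100, Mir99b, Mir125a and Mirlet7e. Those of Mir125b-1, Mirlet7c-1, Mirlet7a-2 and Mir125b-2 were low, and these are the 4 that share 20 bases with another locus.

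Mir99a and Mir100 led their loci in both libraries, and Mir99b led its locus in replicate 2. Mir99a, in the intron of Mir99ahg, had 33978 CPM in replicate 2 and 32139 CPM in replicate 1, from 73264 and 142783 counts. Its mean of 33058 ± 1300 CPM (SD, n = 2) ranked 11 among all microRNA genes. Mir100 had 17056 CPM in replicate 2 and 16763 CPM in replicate 1. Its mean was 16909 ± 207 CPM (SD, n = 2), at rank 16. The libraries lay close together for both genes. Mir99b had 6220 CPM in replicate 2 and 4482 CPM in replicate 1, with a mean of 5351 ± 1228 CPM (SD, n = 2) at rank 28. Relative to its mean its spread was wider than those of its relatives, with replicate 2 the higher library. The family took 5.73% of assigned counts in replicate 2 (Wilson 95% interval 5.69 to 5.76) and 5.34% in replicate 1 (5.32 to 5.36). Mir99a made up 59.3% of the family in replicate 2 and 60.2% in replicate 1, Mir100 29.8% and 31.4%, and Mir99b 10.9% and 8.40%.

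Of the let-7 genes in these loci, Mirlet7e held nearly all assigned counts. It had 3955 CPM in replicate 2 and 2593 CPM in replicate 1, from 8527 and 11518 counts, a mean of 3274 ± 963 CPM (SD, n = 2) and rank 36. Mirlet7c-1 had 142 CPM in replicate 2 and 151 CPM in replicate 1, from 306 and 672 counts. Mirlet7a-2 had 119 CPM in replicate 2 and 116 CPM in replicate 1, from 257 and 514 counts. Neither low gene had a range that reached the Mirlet7e values. The 3 genes took 0.422% of counts in replicate 2 and 0.286% in replicate 1, and Mirlet7e made up 93.8% and 90.7% of that. Mirlet7c-1 and Mirlet7a-2 share 20 bases with other genes and Mirlet7e does not. Multimapping reads were left out, so the counts of the low genes may miss reads. Their number was not tested.

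The mir-125 genes were divided in the same way. Mir125a had 3895 CPM in replicate 2 and 5300 CPM in replicate 1, from 8398 and 23546 counts, a mean of 4597 ± 994 CPM (SD, n = 2) and rank 31. Here replicate 1 was the higher library, unlike for its neighbours Mir99b and Mirlet7e. Mir125b-1 had 228 CPM in replicate 2 and 278 CPM in replicate 1, from 491 and 1235 counts. Mir125b-2 had 101 CPM in replicate 2 and 109 CPM in replicate 1, from 217 and 484 counts. Summed, the genes of miR-125b had 328 CPM in replicate 2 and 387 CPM in replicate 1, and the counts of Mir125a were 11.9 and 13.7 times that sum. Reads of miR-125b-5p match both genes exactly and multimapping reads were left out, so the sum may miss reads of that arm. How many was not tested. The family took 0.422% of counts in replicate 2 and 0.569% in replicate 1.

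**Figure D2:**
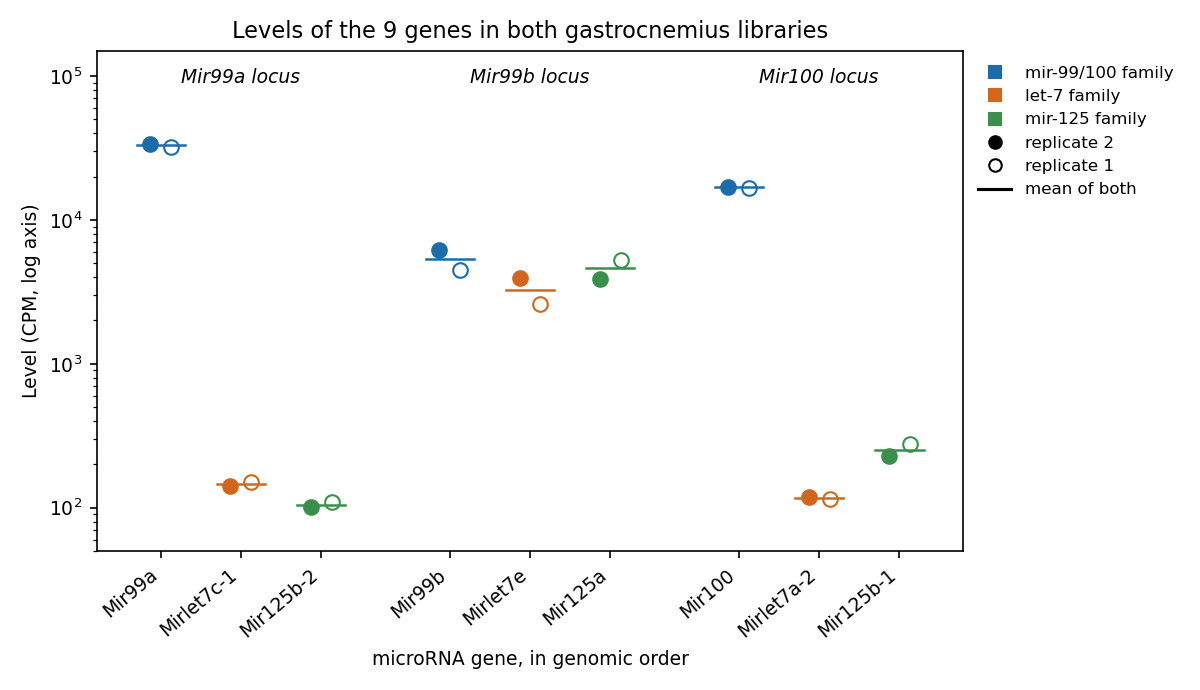
Level of each gene in CPM on a log axis, with filled points for replicate 2, open points for replicate 1 and a line at their mean, grouped by locus and coloured by family. Mir99a and Mir100 stand at 33058 and 16909 CPM, the genes of the Mir99b locus between 2593 and 6220 CPM in either library, and the other 4 genes at or under 278 CPM.

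Ordered by mean CPM, the genes ran Mir99a, Mir100, Mir99b, Mir125a, Mirlet7e, Mir125b-1, Mirlet7c-1, Mirlet7a-2 and Mir125b-2. The ranges of the libraries overlapped between Mir99b and Mir125a and between Mir125a and Mirlet7e. The place of Mir125a in the Mir99b locus thus did not hold beyond the spread. Mir99b, at 4482 to 6220 CPM, lay above Mirlet7e, at 2593 to 3955 CPM, without overlap. The other neighbours in the order did not overlap, although the last 2, at 117 ± 2.47 and 105 ± 5.87 CPM (SD, n = 2), were close. Per base of precursor (65 to 96 nt) the mean levels were 509 CPM for Mir99a, 211 for Mir100, 76.4 for Mir99b, 67.6 for Mir125a, 35.2 for Mirlet7e, 3.28 for Mir125b-1, 1.56 for Mirlet7c-1, 1.48 for Mir125b-2 and 1.22 for Mirlet7a-2. On that scale the last 2 changed places. Inserts were under 30 nt, shorter than any of these precursors, and whether counts scale with precursor length was not tested.

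The 4 genes that share 20 bases with another locus lay between 101 and 228 CPM in replicate 2 and between 109 and 278 CPM in replicate 1. The 5 genes that share none lay between 3895 and 33978 CPM in replicate 2 and between 2593 and 32139 CPM in replicate 1. The sharing genes held 0.897% of the counts of all 9 genes in replicate 2 and 1.06% in replicate 1. The groups did not overlap in either library, as a description with no test. Reads of let-7c-5p or miR-125b-5p match more than 1 locus exactly, and multimapping reads were left out of the deposited counts. How many of these came from the 4 genes was not tested.

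The same split was looked at in the genes elsewhere that carry a member's seed. Over the 19 genes with 1 of the 3 seeds or the let-7 name and 2 CPM or more in both libraries, the 8 that share 20 bases with another locus had mean levels of 105 to 6240 CPM, with a median of 227 CPM. The 11 that share none had 411 to 52535 CPM, with a median of 16909 CPM. Members made up 4 of the 8 and 5 of the 11, so this was no separate check of the split. These ranges overlapped, through Mirlet7f-2 at 6240 ± 426 CPM (SD, n = 2) among the sharing genes and Mir351 at 411 ± 177 CPM among the others. Over all 2202 genes, 77 of 1087 sharing genes and 247 of 1115 others were detected, and the median levels of those detected were 71.9 and 48.2 CPM. The sharing genes did not have the lower median among detected genes, but they were detected less often, 7.08% against 22.2%. A mean of 1000 CPM or more was reached by 9 sharing genes and 43 others. The medians leave out genes below detection, and the part of left-out reads in these levels was not tested.

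**Figure D3:**
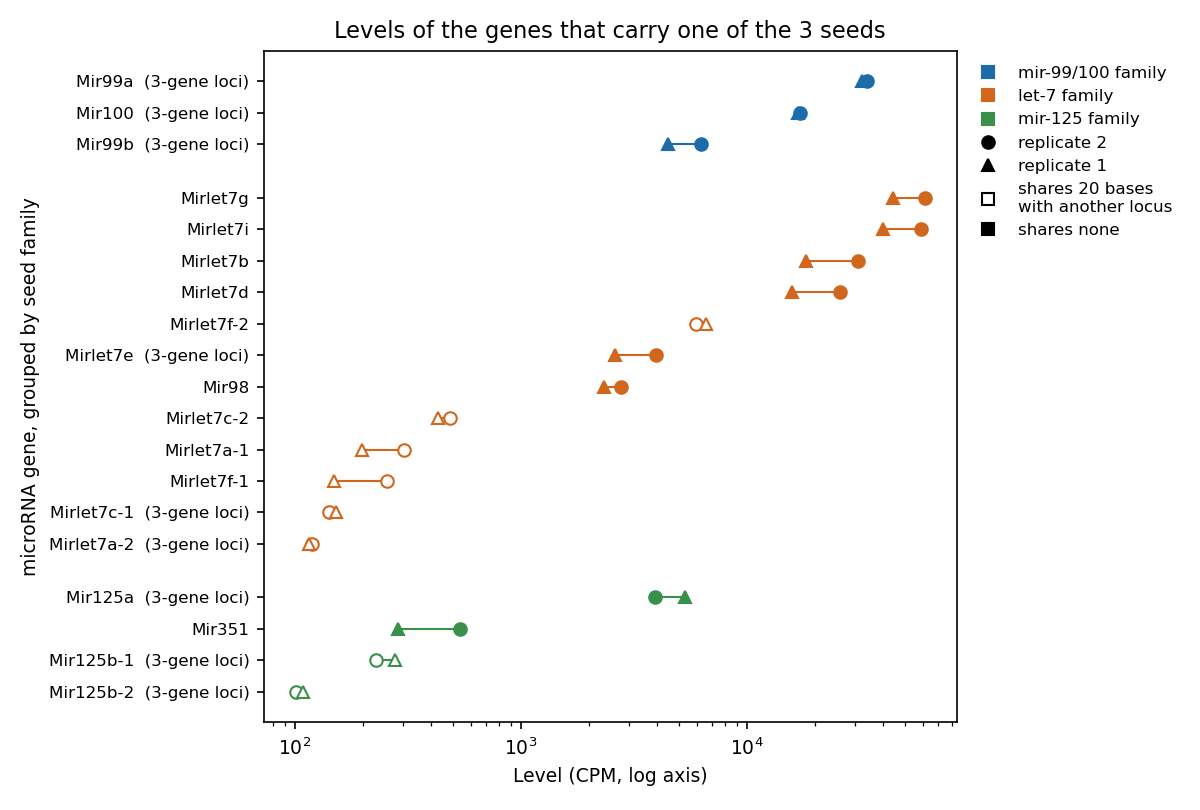
Levels in CPM on a log axis of the detected genes with a mir-99/100, let-7 or mir-125 seed, circles for replicate 2 and triangles for replicate 1, with open symbols for precursors that share 20 bases with another locus. In the let-7 family Mirlet7c-1 and Mirlet7a-2 are the lowest at 147 and 117 CPM, while Mirlet7g, outside the 3 loci, reaches 52535 CPM.

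The 3 loci held different parts of the counts of their seed families. No gene outside them carries the mir-99/100 seed in the RefSeq table, so they held all of its counts. Another 3 genes carry the mir-125 seed, of which Mir351 on chromosome X was detected and Mir6367 and Mir6394 had no count. The mature sequence of miR-351-5p, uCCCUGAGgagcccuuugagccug, has the same bases 2 to 8 as the miR-125 arms. Mir351 had 536 CPM in replicate 2 and 286 CPM in replicate 1, and the 3 loci held 88.7% and 95.2% of the counts of that seed. Of the let-7 seed the 3 loci held 2.21% in replicate 2 and 2.20% in replicate 1. Reads that match more than 1 locus are not in these counts, and their part in the mir-125 and let-7 shares was not tested. The 11 other genes with that seed took 18.6% of all assigned counts in replicate 2 and 12.7% in replicate 1, led by Mirlet7g, Mirlet7i and Mirlet7b at 52535 ± 12077, 49290 ± 13514 and 24525 ± 8981 CPM (SD, n = 2). Mirlet7c-2, which has the same 5′ arm as Mirlet7c-1, had 484 CPM in replicate 2 and 431 CPM in replicate 1.

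By locus, the Mir99a locus took 3.42% of assigned counts in replicate 2 (Wilson 95% interval 3.40 to 3.45) and 3.24% in replicate 1 (3.22 to 3.26). The Mir100 locus took 1.74% in replicate 2 (1.72 to 1.76) and 1.72% in replicate 1 (1.70 to 1.73). The Mir99b locus took 1.41% in replicate 2 (1.39 to 1.42) and 1.24% in replicate 1 (1.23 to 1.25). The order of the loci was the same in both libraries.

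The loci differed in how their counts were divided. Mir99a made up 99.3% of the counts of its locus in replicate 2 and 99.2% in replicate 1. Mir100 made up 98.0% of its locus in replicate 2 and 97.7% in replicate 1. In CPM, Mir99a was 239 times Mirlet7c-1 in replicate 2 and 212 times in replicate 1, and 346 and 307 times per precursor base. Mir100 was 143 times Mirlet7a-2 in replicate 2 and 145 times in replicate 1, and 172 and 174 times per precursor base. Mir100 over Mir125b-1 gave 74.9 in replicate 2 and 60.3 in replicate 1 in CPM, and 72.1 and 58.0 per precursor base. The let-7 and mir-125 genes of these loci share 20 bases with another locus, while Mir99a and Mir100 share none. Multimapping reads were left out of the counts, so these shares and ratios hold for assigned counts only. The part of the left-out reads in them was not tested.

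In the Mir99b locus no gene held most of the counts, and the division changed between the libraries. Mir99b made up 44.2% of its counts in replicate 2 (Wilson 95% interval 43.7 to 44.8) and 36.2% in replicate 1 (35.8 to 36.6). Mirlet7e made up 28.1% in replicate 2 (27.6 to 28.6) and 20.95% in replicate 1 (20.6 to 21.3). Mir125a made up 27.7% in replicate 2 (27.2 to 28.2) and 42.8% in replicate 1 (42.4 to 43.2). Mir125a was thus the highest of the 3 in replicate 1 but not in replicate 2, where its interval overlapped that of Mirlet7e. For each gene the intervals of counting error did not overlap between the libraries. Mir99b over Mir125a was 1.60 in replicate 2 and 0.846 in replicate 1 in CPM, and 1.55 and 0.822 per precursor base. Mir99b over Mirlet7e was 1.57 in replicate 2 and 1.73 in replicate 1 in CPM, and 2.09 and 2.30 per precursor base. Mirlet7e over Mir125a was 1.02 in replicate 2 and 0.489 in replicate 1 in CPM, and 0.742 and 0.358 per precursor base, where Mirlet7e was the lowest of the 3 in both libraries. These ratios within a library do not depend on how the libraries are scaled.

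**Figure D4:**
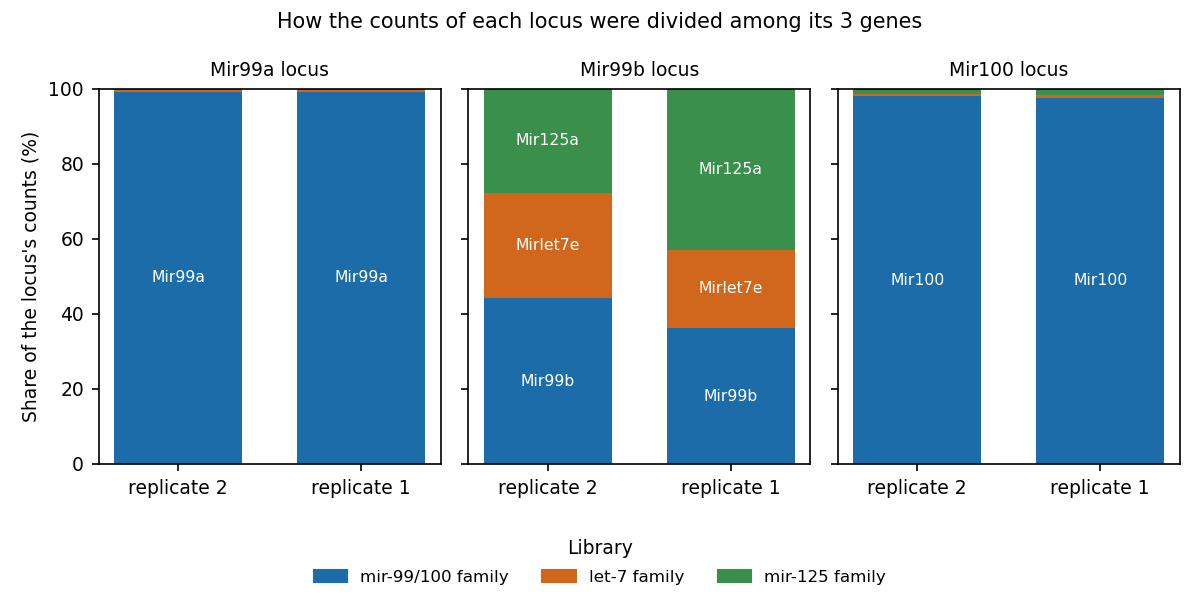
Share of each locus's counts in percent held by its 3 genes, stacked, in replicate 2 and replicate 1, coloured by family. In the Mir99b locus Mir125a takes 27.7% in replicate 2 and 42.8% in replicate 1, while Mir99a and Mir100 take over 97% of their loci in both libraries.

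Replicate 2 over replicate 1 shows how far the genes differed between samples with the same labels. Each side is 1 library, so the difference has no replicate check. Log2 ratios are of CPM + 1 after edgeR's TMM scaling, with exact 95% Clopper-Pearson intervals of the counts. None of the 9 genes differed 2-fold or more, against 31.6% of the 380 genes with 10 or more counts (12.9% higher and 18.7% lower in replicate 2) and 17.3% of the 52 genes with a mean of 1000 CPM or more. The median size of the log2 ratio, without its sign, was 0.17 over the 9 genes, 0.65 over the 380 and 0.54 over the 52.

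Mirlet7e and Mir99b were the furthest above 0. The log2 ratio of Mirlet7e was 0.70 (0.66 to 0.74), a 1.63-fold higher level in replicate 2, and that of Mir99b was 0.57 (0.53 to 0.60), 1.48-fold higher. Mir125a, in the same locus, was at −0.35 (−0.39 to −0.32), 1.28-fold lower in replicate 2. The genes of the most compact locus thus went in both directions, and these 3 directions were the same under every scaling, strand, pseudocount and filter setting that gave a value.

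The genes of the wide loci were nearer to 0. Mir99a had a log2 ratio of 0.17 (0.16 to 0.19) and Mir100 of 0.12 (0.10 to 0.14), and that of Mir100 turned to −0.028 when no count filter preceded the scaling. Mirlet7a-2 was at 0.13 (−0.086 to 0.35) and −0.010 with no count filter, and Mirlet7c-1 was at 0.0012 (−0.20 to 0.20), with a direction that turned under other scalings. Mir125b-2 was at −0.021 (−0.26 to 0.21) and Mir125b-1 at −0.19 (−0.35 to −0.043). All 3 mir-125 genes were thus below 0 with the scaling used, although Mir125b-2 was at 0.076 when only genes with 100 or more counts entered the scaling.

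In an exact two-sided binomial test of the counts with Benjamini-Hochberg adjustment over the 380 genes, 61.8% of all genes passed an adjusted p of 0.05, 30.3% higher and 31.6% lower in replicate 2. Of the 9 genes 6 passed: Mir99a, Mir100, Mir99b and Mirlet7e, higher in replicate 2, and Mir125a and Mir125b-1, lower in replicate 2. The share of 6 in 9 was close to that background, which depends on the filter: 6 of 9 also passed against 35.0% of all genes with no count filter and 82.5% with 100 or more counts. With no count filter Mir100 passed in the opposite direction, lower in replicate 2 at a log2 ratio of −0.028 with an adjusted p of 0.0073 in the exact binomial test (2.09e-119 to 0.0121 over the other settings). In this exact binomial test Mirlet7a-2, Mir125b-2 and Mirlet7c-1 had adjusted p of 0.306, 0.914 and 1. For Mir125b-1 the adjusted p was 0.0210 in the exact binomial test, and 0.244 when only genes with 100 or more counts entered, the highest over the settings tried, of which the lowest was 3.33e-05. The test compares these 2 libraries and counts only sampling error, so deeply counted genes pass with small differences: Mir100 passed with a log2 ratio of 0.12. Among the 11 other let-7 seed genes, 9 were tested in the same way, 8 were higher in replicate 2 and 1, Mirlet7f-2, was lower at a log2 ratio of −0.046, with a median of 0.66.

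**Figure D5:**
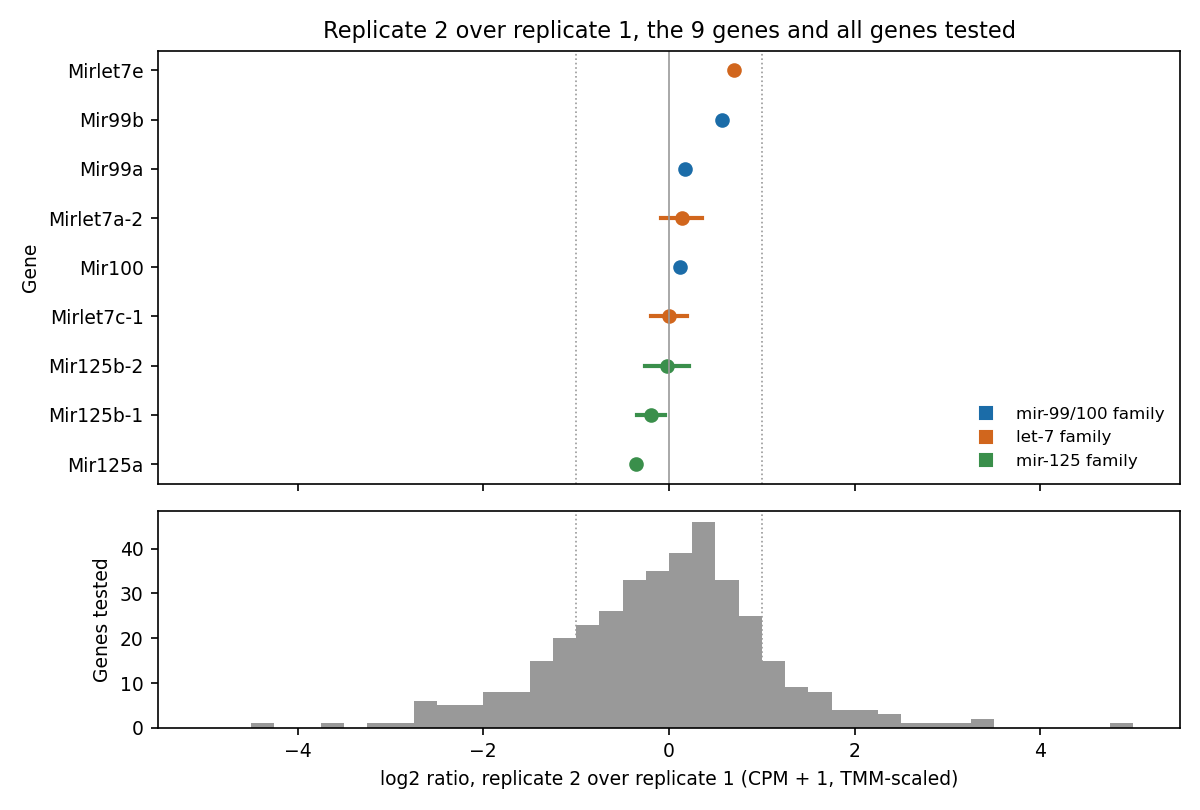
Top, log2 ratio of replicate 2 over replicate 1 for each of the 9 genes with its exact 95% counting interval, coloured by family, and bottom, the number of tested genes by log2 ratio, with dotted lines at 2-fold. The 9 genes lie between −0.35 and 0.70, inside the dotted lines, while 31.6% of the 380 tested genes lie on or beyond them.

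Counts on the opposite strand were 0 for all 9 genes in both libraries. Counts without strand were the same as those on the gene's strand for 8 of the 9. Mirlet7e was at 0 without strand, and it overlaps the microRNA gene model Gm25927 on the minus strand, so its level rests on the strand-specific counts.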

How the data were processed

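For each library the authors deposited a table of raw read counts of the microRNA genes, on mm10 with annotation M21 per the readmes of the files. Trimming, alignment and counting tools were not given in the sources used here, and inserts were under 30 nt per the labels. The 3 count columns were told apart by their values: reads counted without strand, in sense and in antisense. The sense column was used. Rows of reads in no gene (80.2% of reads in replicate 2 and 84.3% in replicate 1) stayed out of totals and tests. Replicate 2 has 2156222 assigned counts and replicate 1 has 4442692, which sets the counting intervals.

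All 2202 identifiers matched GENCODE M21. CPM were taken over all microRNA genes. Precursors of the M21 transcripts were searched for 20 bases shared, on either strand, with a microRNA gene at another place. Mature sequences and seeds came from RefSeq. Genes with 10 or more summed counts entered the log2 ratio (CPM + 1, TMM) and the exact binomial test. The test was also run on simulated counts with counting error only, which cannot show how it behaves under other variation between samples. Other settings were counts without strand, other totals, DESeq2 size factors, plain totals, pseudocounts of 0.1 and 5 CPM, other count filters, levels per precursor base and each library alone. The members and lists were chosen with earlier results of these data known. Named genes were the 9 members, genes with a member's seed, Mir10a and Mir10b, and per locus the 3 genes of 1000 CPM or more nearest to its median log2 ratio. Tools were R 4.3.3, DESeq2 1.42.0, edgeR 4.0.16, Python 3.11.15, matplotlib 3.10.9, scipy 1.17.1, pandas 2.3.3 and numpy 2.4.6.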

Additional observations from a re-analysis of the deposited data

How the results depend on the processing

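Under every setting run 0 of 9 genes were past 2-fold, against 18.7% of all genes (pseudocount of 5 CPM) to 34.2% (0.1 CPM). The exact binomial test passed 6 of 9, or 5 with the counts without strand, where Mirlet7e has none, against 35.0% of all genes with no count filter, 59.4% without strand and 82.5% with 100 or more counts. With 100 or more counts, a setting added after seeing the data for the log2 ratios, the 6 held Mirlet7a-2 (log2 ratio 0.23) in place of Mir125b-1 (−0.10). With the counts without strand the shares of assigned counts were 4.62% for the Mir99a locus, 2.40% for the Mir100 locus, 7.67% for mir-99/100, 0.0366% for let-7 and 0.689% for mir-125, and Mirlet7e over Mir125a was 0. With the total taken without Mir378a, the most abundant gene, the Mir99a, Mir99b and Mir100 loci took 4.03%, 1.60% and 2.09% and mir-99/100 took 6.69%. With the total over genes that share no 20 bases, the 9 genes kept, they took 4.65%, 1.85% and 2.41%, and mir-99/100, let-7 and mir-125 took 7.73%, 0.497% and 0.687%. A smaller total raises every share by construction. Per precursor base the ratios were 327 for Mir99a over Mirlet7c-1, 1.06 for Mirlet7c-1 over Mir125b-2, 2.19 for Mir99b over Mirlet7e, 173 for Mir100 over Mirlet7a-2 and 0.377 for Mirlet7a-2 over Mir125b-1, which follows from the precursor lengths.

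The log2 ratio of Mirlet7c-1 turned to −0.021 without strand, −0.037 with DESeq2 size factors, −0.091 with plain totals and −0.14 with no count filter. With no count filter, added in the same way, Mir100 was at −0.028 and Mirlet7a-2 at −0.010. With 100 or more counts Mir125b-2 was at 0.076. TMM shifted all log2 ratios by 0.093 against plain totals, by −0.053 with no count filter and by 0.19 with 100 or more counts. The log2 ratio of Mir99a lay between 0.027 and 0.27 over all settings. No paired analysis was possible because the labels give 1 group. With 2 libraries the spread of every level rests on a single difference, and at 217 to 1235 counts the 4 low genes have intervals of up to 0.24 to either side of their log2 ratio.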

Other observations

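The wider mir-10 family, to which mir-99/100 belongs, has another pair of abundant genes in this muscle, Mir10b and Mir10a, which lie in the Hox clusters. Mir10b had 19392 CPM in replicate 2 and 20484 CPM in replicate 1, and Mir10a had 3630 CPM in replicate 2 and 2777 CPM in replicate 1. Their seed, ACCCUGU, differs from ACCCGUA of mir-99/100. The log2 ratio of Mir10b was 0.014 (adjusted p = 0.140 in the exact binomial test) and that of Mir10a was 0.48.

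Likeness to a locus was measured as the distance of a gene's log2 ratio from the median of the locus, over 2 libraries and among 47 other genes with a mean of 1000 CPM or more. Nearest to the Mir99a locus (median 0.0012) were Mir10b, Mirlet7f-2 and Mir28a, at 0.014, −0.046 and 0.065. That median is the ratio of the low gene Mirlet7c-1, while Mir99a was at 0.17. Nearest to the Mir99b locus (median 0.57) were Mirlet7g, Mir361 and Mir322, at 0.57, 0.52 and 0.63, although Mir125a of that locus was at −0.35. Nearest to the Mir100 locus (median 0.12) were Mir93, Mir28a and Mir10b, at 0.16, 0.065 and 0.014. With 2 libraries each pattern is a single difference, and likeness says no more than that these ratios were close.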
